A study of Mus musculus with 12 samples.

Results

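The lysosome and autophagy genes described here were a list of 32 named mouse genes, of which 31 were measured, out of 22180 genes read on the arrays. A member counted as measured where a probe set carried its symbol and no other symbol, and the brightest probe set was taken where a member had several. Glb1, the lysosomal β-galactosidase, was not analysed here, since its probe set also carries a neighbouring gene's symbol. By role the measured members were 10 proteases and peptidases, 5 glycosidases, 5 proteins of lipid breakdown and lipid handling, 6 membrane proteins, the regulators Tfeb and Grn, and 3 proteins of the autophagosome. Tfeb, with a mean log2 level of 2.87, was the only member under the 30th percentile of all genes, which was 3.04, and was treated as dim.

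The values came from the livers of male mice, with 1 array per mouse and 3 mice in each of 4 groups, 12 arrays in all. Wild-type mice and mice of a Lats2 mutant line, which the labels call both Lats2-CKO and Lats2-KO, started at 8 weeks of age on a cholesterol-free normal diet or a high-cholesterol (Paigen) diet holding 1.25% cholesterol, and ate it for 9 weeks. All 4 groups shared age, sex, tissue and feeding time. The labels do not say in which cells or over which stretch Lats2 was removed, and the whole liver was read, so that fewer cells of a type and less RNA per cell cannot be told apart. The study asked how the livers of the 2 genotypes differed on each of the diets.

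Lysosomes are acidic organelles in which hydrolases take apart the proteins, sugars and lipids delivered by endocytosis and by autophagy. Cholesterol esters that enter a cell with lipoproteins are cut there by the lipase Lipa, and Npc2 and Npc1 pass the freed cholesterol out of the organelle. The factor Tfeb and its relatives bind a short palindrome, the CLEAR element, in front of many lysosomal genes, and the liver's resident macrophages, the Kupffer cells, are especially rich in lysosomal proteases.

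The CLEAR element was looked for in the RefSeq promoter windows of assembly GRCm38.p6, each running from 250 bases before to 50 bases after a gene's start, and 29 of the 32 members had such a window. The letters TCACGTGA, the centre of the element, were found on either strand in 4 of the 29 members (13.8%) and in 304 of 27025 genes (1.12%). The shorter TCACGTG, which lies inside TCACGTGA, stood in 7 members (24.1%) against 4.29% of all genes, and the E-box CACGTG, which lies inside both, in 8 (27.6%) against 8.09%. The windows of Ctsa (cathepsin A), Ctsd (cathepsin D), Gla (α-galactosidase) and Mcoln1 (a calcium channel of the lysosomal membrane) are printed because they held the 8 letters, which are in capitals; Lamp1, a main glycoprotein of the lysosomal membrane, was added after its sequence was seen because TCACGTG, in capitals on either strand there, occurs 4 times within it. They are chr2:164833523-164833822 on the plus strand, chr7:142387778-142388077 on the minus strand, chrX:134600956-134601255 on the minus strand, chr8:3500269-3500568 on the plus strand and chr8:13158911-13159210 on the plus strand, each given 5′ to 3′.
Ctsa: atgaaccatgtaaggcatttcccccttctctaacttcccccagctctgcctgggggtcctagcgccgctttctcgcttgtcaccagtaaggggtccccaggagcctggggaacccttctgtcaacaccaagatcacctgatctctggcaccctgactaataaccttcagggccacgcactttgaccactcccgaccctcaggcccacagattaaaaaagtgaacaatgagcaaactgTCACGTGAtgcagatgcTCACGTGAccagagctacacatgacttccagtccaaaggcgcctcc
Ctsd: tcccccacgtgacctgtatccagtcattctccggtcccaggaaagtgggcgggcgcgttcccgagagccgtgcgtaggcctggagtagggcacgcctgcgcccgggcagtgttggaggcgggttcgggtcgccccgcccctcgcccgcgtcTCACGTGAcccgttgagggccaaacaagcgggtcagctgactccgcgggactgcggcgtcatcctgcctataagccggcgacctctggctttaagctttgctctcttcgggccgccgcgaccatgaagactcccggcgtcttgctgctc
Gla: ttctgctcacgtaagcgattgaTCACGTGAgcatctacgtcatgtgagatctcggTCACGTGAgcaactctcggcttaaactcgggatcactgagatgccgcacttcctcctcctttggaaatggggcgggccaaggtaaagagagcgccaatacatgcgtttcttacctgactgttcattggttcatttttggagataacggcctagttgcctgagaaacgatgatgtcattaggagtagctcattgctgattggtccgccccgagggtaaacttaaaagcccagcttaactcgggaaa
Mcoln1: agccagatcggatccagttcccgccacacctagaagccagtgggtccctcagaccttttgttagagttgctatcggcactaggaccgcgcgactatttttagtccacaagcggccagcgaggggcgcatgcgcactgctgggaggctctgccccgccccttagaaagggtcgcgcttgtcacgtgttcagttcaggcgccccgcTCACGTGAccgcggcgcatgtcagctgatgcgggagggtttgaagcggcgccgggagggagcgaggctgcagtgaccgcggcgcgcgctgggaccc
Lamp1: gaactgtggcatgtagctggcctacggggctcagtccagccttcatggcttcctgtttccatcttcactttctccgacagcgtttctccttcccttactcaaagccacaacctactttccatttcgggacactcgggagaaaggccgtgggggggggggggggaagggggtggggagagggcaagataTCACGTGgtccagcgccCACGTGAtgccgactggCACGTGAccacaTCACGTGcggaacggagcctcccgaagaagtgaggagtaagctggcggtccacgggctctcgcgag
Ctsa held the 8 letters 2 times, starting at -13 and 5 relative to the gene start, and Gla 2 times, at -228 and -195. The windows of Ctss and Gabarapl1, the members with the smallest adjusted p for diet, held none of the 3 motifs. Over both genotypes the 6 measured members with TCACGTG had diet changes of -0.07 to 0.29 (log2), with a median of 0.15, and the 22 measured members whose window lacked it had changes of -0.24 to 1.41, with a median of 0.20. These are letters in a window and do not show that a factor was bound.

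Several properties of the arrays bear on what follows. All values are log2 levels per probe set as deposited, so a difference of 1 is a doubling of signal, and levels of different genes are not compared. Hepatocyte markers had a list mean of 12.19 to 12.35 on every array, and Lats2 read 4.37 to 4.99 on the 6 Lats2-CKO arrays and 5.12 to 5.97 on the 6 wild-type arrays, without overlap. Wild-type normal-diet array 3 was nearer to other groups than to its own. It correlated at 0.981 on average with the other wild-type normal-diet arrays and at 0.987 with the wild-type high-cholesterol arrays, over all genes, and its nearest array was Lats2-CKO high-cholesterol array 3 (0.993). Results are therefore given with and without it. Since it was singled out for its likeness to high-cholesterol arrays, leaving it out favours larger diet changes and more calls. Diet calls made without it are thus not independent support for a change. The arrays also fell into 2 sets by their medians, 6 arrays in each (3.48 to 3.50 and 3.42 to 3.43), and each group lay in both. In each genotype the higher set held 2 normal-diet arrays and 1 high-cholesterol array, and the lower set the reverse. Diet and array set were thus partly confounded, so changes are also given within each set, with 1 or 2 arrays a side and no test. The p-values measure the spread between these mice.

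On the high-cholesterol diet most lysosomal members had higher fitted values than on the normal diet, and the largest change was that of Ctss, the protease cathepsin S. Averaged over both genotypes, 27 of the 31 measured members had a fitted change above 0, against 44.7% of all genes, and the median change was 0.23 (log2), against -0.02 over all genes. A single member, Ctss, passed the test (limma, Benjamini-Hochberg adjusted p under 0.05), where 1.24% of all genes passed in either direction and 0.365% upward. At an unadjusted p under 0.05, 13 members passed, all upward, against 18% of all genes in either direction. No member had all 6 high-cholesterol arrays above all 6 normal-diet arrays (0.379% of all genes did).

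Among the proteases, Ctss read 7.30, 7.31 and 7.97 in wild type and 6.81, 6.49 and 7.47 in Lats2-CKO on the normal diet. On the high-cholesterol diet Ctss read 9.76, 9.39 and 8.30 in wild type and 7.54, 8.43 and 8.38 in Lats2-CKO. Within each genotype every high-cholesterol array lay above every normal-diet array, although Lats2-CKO high-cholesterol array 1 lay below wild-type normal-diet array 3. Over both genotypes Ctss rose by 1.41 ± 0.28 (log2, SE of the fit), or 2.65-fold (limma adjusted p = 0.0432). The call was kept without wild-type normal-diet array 3 (1.52 ± 0.29, limma adjusted p = 0.0123) and without wild-type high-cholesterol array 3 (1.62, limma adjusted p = 0.0194), and was lost on leaving out each of the other 10 arrays in turn (limma adjusted p from 0.0618 to 0.124) and on blocking the fit by array set (1.29, limma adjusted p = 0.0842). Its change within the array sets was 2.45 and 0.87 in wild type and 0.89 and 0.94 in Lats2-CKO.

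The other proteases had smaller fitted changes. Ctsc, cathepsin C, which activates granule proteases, read 9.55, 9.95 and 10.33 in wild type and 9.11, 9.59 and 9.62 in Lats2-CKO on the normal diet, and 10.21, 10.95 and 10.28 and then 9.83, 10.90 and 10.63 on the high-cholesterol diet. Its groups did not overlap between diets in Lats2-CKO and overlapped in wild type, and its change over both genotypes was 0.77 ± 0.21 (limma adjusted p = 0.0998). Ctsb, the abundant cathepsin B, differed by 0.35 ± 0.08 (limma adjusted p = 0.0597). Ctsd, the main aspartic protease of the lysosome, read 10.27, 10.21 and 10.65 against 10.93, 10.90 and 10.41 in wild type, and 10.24, 10.43 and 10.17 against 10.13, 10.34 and 10.68 in Lats2-CKO, so its diet groups overlapped in both genotypes. The remaining 6 proteases, Ctsa, Ctsh, Ctsk, Ctsl, Ctsz and Tpp1, had changes from -0.16 (Ctsz) to 0.27 (Ctsa). Over all 10 proteases the median was 0.24.

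**Figure D1:**
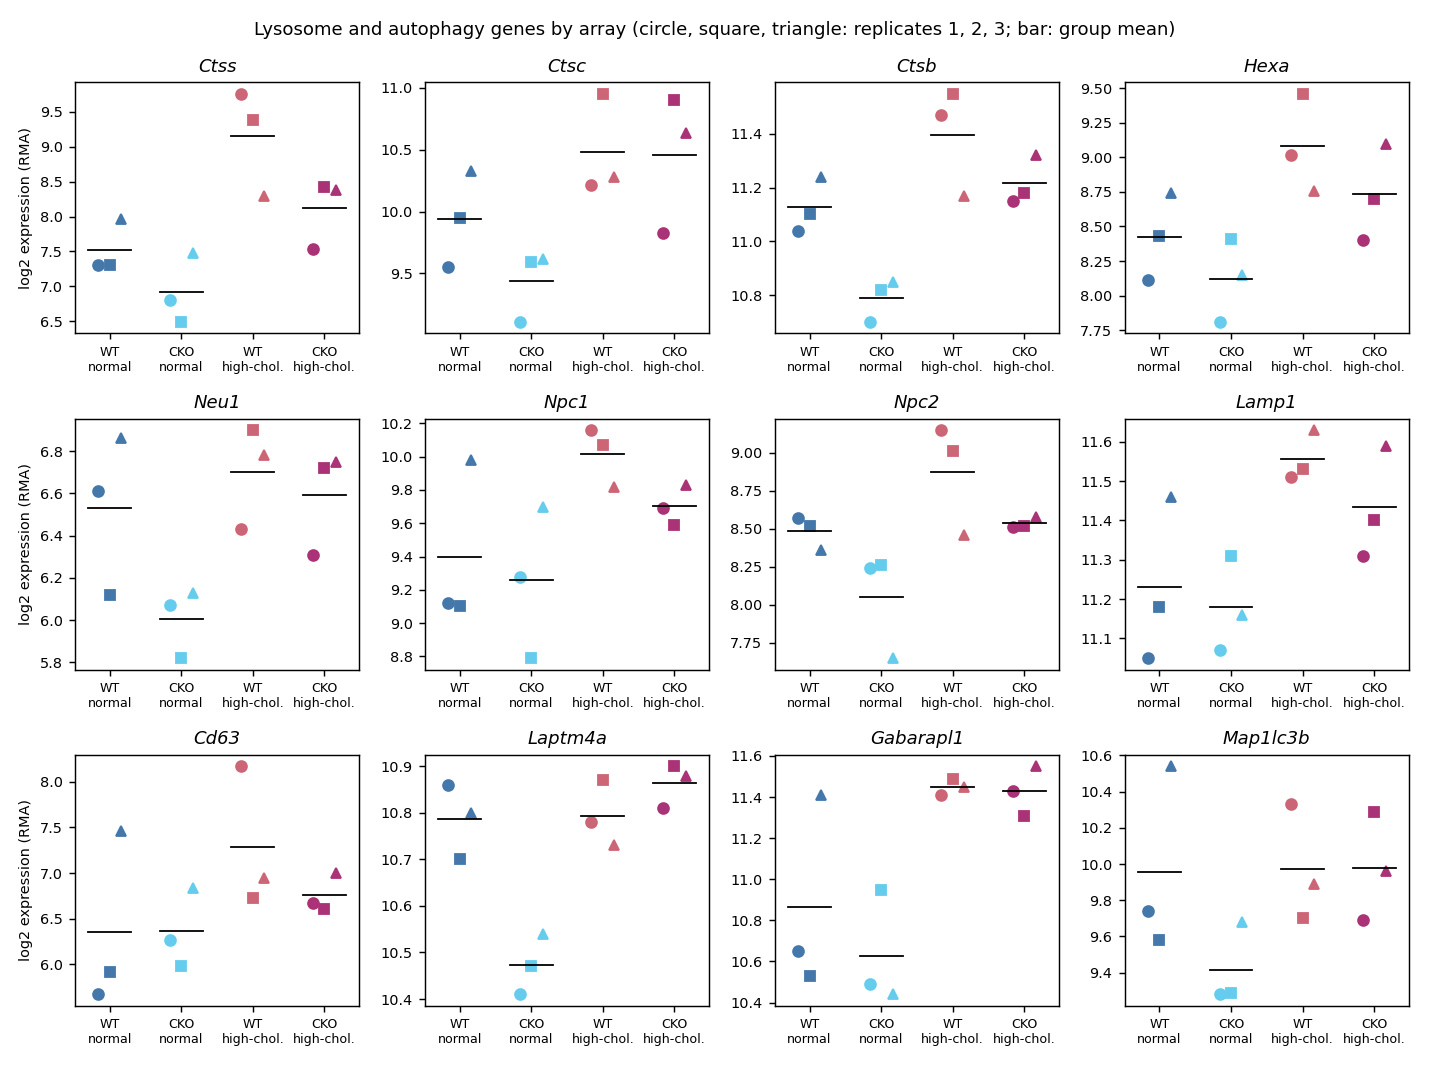
Log2 expression of 12 lysosome and autophagy genes on each of the 12 arrays, by genotype and diet; circles, squares and triangles are replicates 1, 2 and 3 and the bar is the group mean of 3 arrays. Ctss is higher on the high-cholesterol diet in both genotypes, and the wild-type normal-diet triangle sits at 11.41 for Gabarapl1 and 9.98 for Npc1, beside the high-cholesterol arrays.

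The 3 autophagosome proteins differed among themselves. Gabarapl1, a member of the Atg8 family that is coupled to lipid on the growing autophagosome, read 10.65, 10.53 and 11.41 in wild type and 10.49, 10.95 and 10.44 in Lats2-CKO on the normal diet. It read 11.41, 11.49 and 11.45 and then 11.43, 11.31 and 11.55 on the high-cholesterol diet. The 6 high-cholesterol arrays ran from 11.31 to 11.55 and lay above 5 of the 6 normal-diet arrays, the exception being wild-type normal-diet array 3. Its change of 0.69 ± 0.15 missed the threshold (limma adjusted p = 0.0513), and without that array it rose by 0.83 ± 0.10 (limma adjusted p = 0.00162), by 0.86 ± 0.15 in wild type (limma adjusted p = 0.0223) and by 0.80 ± 0.14 in Lats2-CKO (limma adjusted p = 0.0178). Within the array set that holds wild-type normal-diet array 3 as the lone normal-diet array, the wild-type change of Gabarapl1 was 0.06, against 0.82 in the other set.

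Map1lc3b, the Atg8 relative LC3B, read 9.74, 9.58 and 10.54 against 10.33, 9.70 and 9.89 in wild type, and 9.28, 9.29 and 9.68 against 9.69, 10.29 and 9.96 in Lats2-CKO, normal diet first. Its diet groups overlapped widely in wild type (0.02 ± 0.26) and were just separate in Lats2-CKO (0.57 ± 0.26), and neither change passed the test (limma adjusted p = 0.99 and 0.375). Sqstm1, the cargo receptor p62 that autophagy itself consumes, read 11.29, 11.23 and 11.06 against 11.13, 10.72 and 10.97 in wild type, and 11.17, 11.51 and 11.07 against 10.77, 11.19 and 11.13 in Lats2-CKO. Its groups overlapped in both genotypes, and its change over both was -0.24 ± 0.11 (limma adjusted p = 0.287), the most negative of the 31 members.

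Of the members that handle lipid, the cholesterol exporters had larger fitted diet changes than the lipase. Npc1, the membrane protein through which cholesterol leaves the lysosome, read 9.12, 9.10 and 9.98 against 10.16, 10.07 and 9.82 in wild type, and 9.28, 8.79 and 9.70 against 9.69, 9.59 and 9.83 in Lats2-CKO. A single normal-diet array in each genotype, replicate 3, reached the high-cholesterol range, and the change over both genotypes was 0.53 ± 0.18 (limma adjusted p = 0.161), or 0.68 ± 0.15 (limma adjusted p = 0.0239) without wild-type normal-diet array 3. Npc1's change within the array sets was 1.05 and -0.03 in wild type and 0.65 and 0.01 in Lats2-CKO. Npc2, its soluble partner, read 8.57, 8.52 and 8.36 against 9.15, 9.01 and 8.46 in wild type, and 8.24, 8.26 and 7.65 against 8.51, 8.52 and 8.58 in Lats2-CKO; the groups were separate in Lats2-CKO alone, and the change over both was 0.44 ± 0.14 (limma adjusted p = 0.129).

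Lipa, the lysosomal acid lipase, read 10.42, 10.63 and 10.62 against 10.44, 10.56 and 10.49 in wild type, and 9.98, 10.36 and 10.61 against 10.50, 10.39 and 10.46 in Lats2-CKO. The diet groups overlapped in both genotypes and the change over both was 0.04 ± 0.10 (limma adjusted p = 0.878). Ppt1, which removes fatty acids from proteins, had a change of 0.46 ± 0.14 (limma adjusted p = 0.117), and Psap, the precursor of the saposins that help degrade sphingolipids, 0.19 ± 0.12 (limma adjusted p = 0.448). The 5 lipid-handling members had a median change of 0.44.

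Of the glycosidases, Hexa, the α-subunit of β-hexosaminidase, read 8.11, 8.43 and 8.74 against 9.02, 9.46 and 8.76 in wild type, and 7.81, 8.41 and 8.15 against 8.40, 8.70 and 9.10 in Lats2-CKO. Every wild-type high-cholesterol array lay above the wild-type normal-diet arrays, though the nearest pair was 8.76 against 8.74, and the Lats2-CKO groups overlapped at 8.40 and 8.41; the change over both genotypes was 0.63 ± 0.17 (limma adjusted p = 0.0921). Neu1, the sialidase, read 6.61, 6.12 and 6.86 against 6.43, 6.90 and 6.78 in wild type, and 6.07, 5.82 and 6.13 against 6.31, 6.72 and 6.75 in Lats2-CKO. Neu1 overlapped between diets in wild type and was separate in Lats2-CKO, with a change over both of 0.38 ± 0.14 (limma adjusted p = 0.19). The values for Gusb (β-glucuronidase), Gla and Gaa (acid α-glucosidase, the lysosomal enzyme of glycogen breakdown) were 0.19, -0.01 and -0.07.

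Among the membrane proteins, Lamp1 read 11.05, 11.18 and 11.46 against 11.51, 11.53 and 11.63 in wild type, and 11.07, 11.31 and 11.16 against 11.31, 11.40 and 11.59 in Lats2-CKO. Its diet groups did not overlap in either genotype, although the nearest pair in Lats2-CKO both round to 11.31, and the change over both genotypes was 0.29 ± 0.09 (limma adjusted p = 0.115). Cd63, a tetraspanin of late endosomes, read 5.67, 5.92 and 7.46 against 8.17, 6.73 and 6.94 in wild type, and 6.27, 5.98 and 6.84 against 6.67, 6.61 and 7.0 in Lats2-CKO. Its diet change was 0.93 ± 0.47 in wild type (limma adjusted p = 0.523), and 1.48 ± 0.38 (limma adjusted p = 0.0775) without wild-type normal-diet array 3, 0.59 without normal-diet array 1 and 0.49 without high-cholesterol array 1 of that genotype. Within the array sets it was 2.37 and -0.62. The remaining membrane proteins Lamp2, Scarb2 (which carries β-glucocerebrosidase to the lysosome) and Mcoln1 had changes of 0.15, 0.25 and 0.07, and Laptm4a, a transmembrane protein of the lysosome, 0.20.

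The regulators showed no change past the threshold. Tfeb read 2.91, 2.81 and 2.82 against 2.71, 3.01 and 3.0 in wild type, and 2.77, 2.74 and 2.86 against 2.87, 2.99 and 2.92 in Lats2-CKO. All of these lie below the 30th percentile, so the array gives little room to see a change (0.10 ± 0.07, limma adjusted p = 0.493). Grn, which encodes progranulin, a protein needed for normal lysosomal function, had a change of 0.02 ± 0.12.

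Within each genotype the fitted diet changes were also mostly upward. In wild type 25 of 31 members had a change above 0, against 44.8% of all genes. No member passed the test (0% of all genes did), and 7 had an unadjusted p under 0.05, against 10.6% of all genes. The high-cholesterol arrays were all higher for 4 members (Ctss, Hexa, Lamp1 and Gabarapl1), against 4.97% of all genes, and all lower for Gaa alone, against 8.81%. The nearest Gabarapl1 pair both round to 11.41, and the nearest Hexa pair was 8.76 against 8.74. The median change was 0.18. In Lats2-CKO 28 of 31 members had a change above 0, against 46.4% of all genes. None passed (0.271% of all genes did) and 11 had an unadjusted p under 0.05, all upward, against 13.4% of all genes. All 3 high-cholesterol arrays lay above the normal-diet arrays for 14 of the 31 members, against 8.98% of all genes and 11.2% of the genes at or above the 30th percentile, and the median change was 0.30. The difference between the genotypes passed the test for no member (smallest limma adjusted p = 0.752; 0.00451% of all genes passed; 2 members, Gaa and Laptm4a, had an unadjusted p under 0.05, against 5.62% of all genes), so these counts do not show that the response differed.

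**Figure D2:**
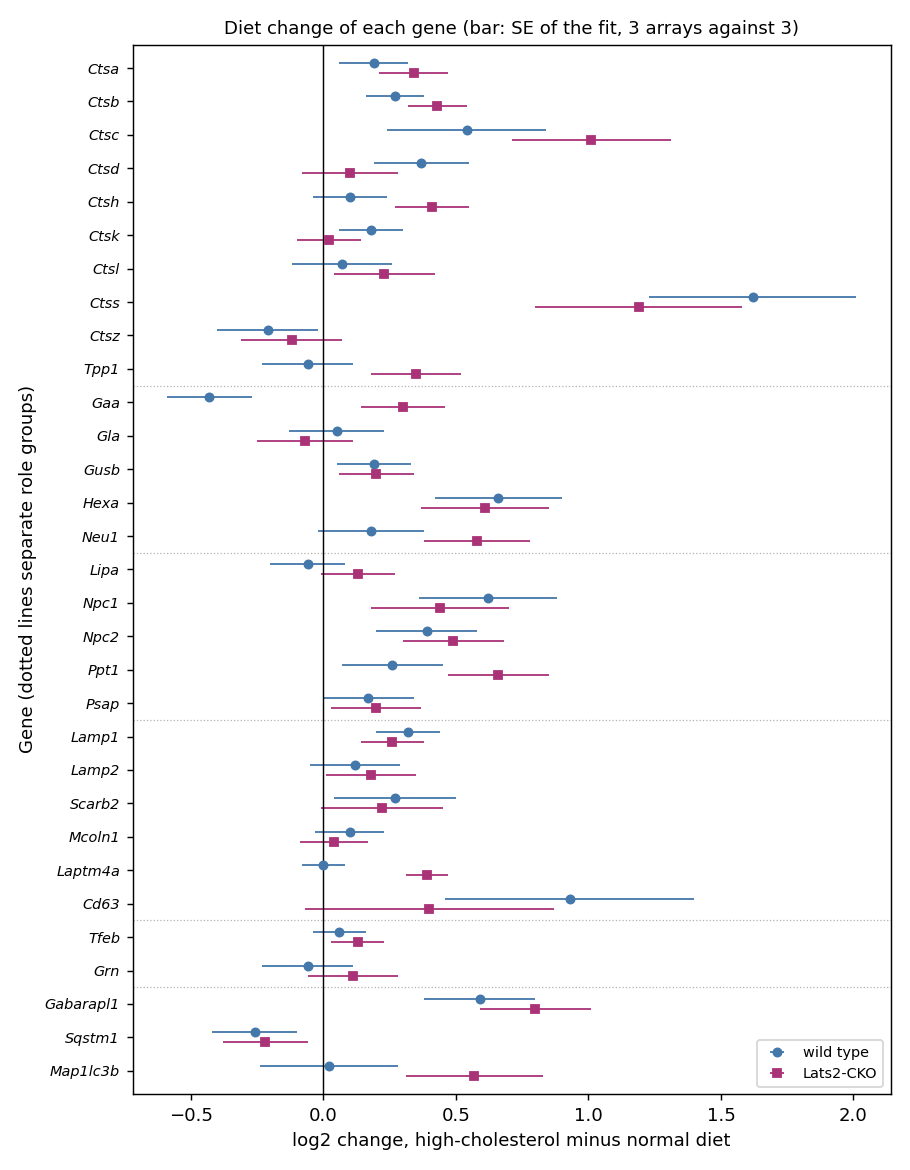
Diet change of each of the 31 genes as log2 of high-cholesterol minus normal diet, for wild type (circles) and Lats2-CKO (squares); bars are the SE of the fit with 3 arrays against 3, and dotted lines separate the role groups. Most points lie right of 0, Ctss farthest at 1.62 in wild type and 1.19 in Lats2-CKO, and Sqstm1 and Ctsz lie left of 0 in both genotypes.

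The diet changes in wild type and over both genotypes depended on wild-type normal-diet array 3. Those in Lats2-CKO were the same without it. Their SE and adjusted p still moved, since all groups share 1 estimate of the spread. Without that array, 1 member passed in wild type (Gabarapl1), where 2.33% of all genes passed. In Lats2-CKO 2 passed, Gabarapl1 and Laptm4a, the latter at 0.39 ± 0.09 (limma adjusted p = 0.0493), where 2.11% of all genes passed. Over both genotypes 7 passed, all upward (7.24% of all genes, 3.14% upward). The 7 were Gabarapl1, Ctss, Npc1, Ctsb (0.38, limma adjusted p = 0.0253), Lamp1 (0.35, limma adjusted p = 0.0255), Hexa (0.71, limma adjusted p = 0.0362) and Ctsc (0.87, limma adjusted p = 0.04). In wild type the high-cholesterol arrays then lay above both remaining normal-diet arrays for 14 members, against 14.7% of all genes. They lay below both for 2 members, Gaa and Sqstm1, against 21.6% of all genes. The median change was 0.28. Within the array sets the wild-type median was 0.39, with 25 of 31 members above 0, and -0.03, with 12 above 0, where array 3 was the lone normal-diet array; in Lats2-CKO it was 0.26 and 0.33.

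**Figure D3:**
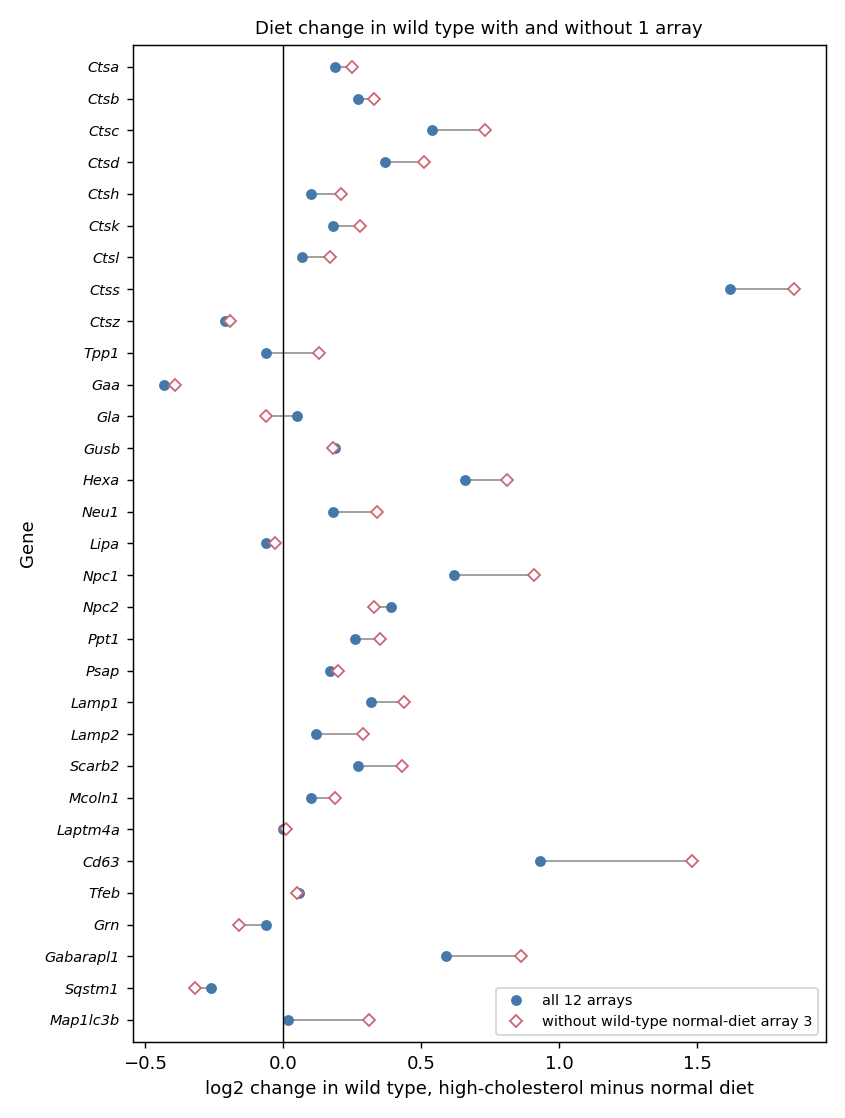
Diet change in wild type (log2, high-cholesterol minus normal diet) of each of the 31 genes with all 12 arrays (filled circles) and without wild-type normal-diet array 3 (open diamonds). Cd63 moves from 0.93 to 1.48, Npc1 from 0.62 to 0.91 and Gabarapl1 from 0.59 to 0.86, while Gaa moves from -0.43 to -0.39 and Lipa from -0.06 to -0.03.

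Between genotypes, most members had lower fitted values in Lats2-CKO livers, and none passed the test. On the normal diet 28 of the 31 members had a change below 0, against 50% of all genes, with a median of -0.24 (0 over all genes). No member passed (limma; 0.0135% of all genes did), 8 had an unadjusted p under 0.05, all lower, against 8.99% of all genes in either direction, and for 7 members every Lats2-CKO array lay below every wild-type array, against 7.36% of all genes. These 7 were Ctsb, Ctsh, Gaa, Npc2, Ppt1, Psap and Laptm4a. The smallest adjusted p was that of Laptm4a, which read 10.86, 10.70 and 10.80 in wild type and 10.41, 10.47 and 10.54 in Lats2-CKO on the normal diet, and 10.78, 10.87 and 10.73 and then 10.81, 10.90 and 10.88 on the high-cholesterol diet. The Lats2-CKO normal-diet arrays were the low group, below all the other 9 arrays, with a genotype change of -0.31 ± 0.08 on that diet (limma adjusted p = 0.251).

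The largest fitted genotype changes on the normal diet were those of Ctss (-0.60 ± 0.39), Map1lc3b (-0.54 ± 0.26) and Neu1 (-0.52 ± 0.20), with limma adjusted p of 0.721, 0.586 and 0.45, and for each the groups overlapped. Without wild-type normal-diet array 3, 22 of 31 members had a change below 0, against 52% of all genes, the median was -0.17, and Ctss stood at -0.38, Map1lc3b at -0.25 and Neu1 at -0.35; Ctss stood at -0.39 without Lats2-CKO normal-diet array 2. Within the array sets the median was -0.13 and -0.42. On the high-cholesterol diet 24 of the 31 members had a change below 0, against 48% of all genes, with a median of -0.12 (0.01 over all genes). None passed (0% of all genes), and 2, Ctss and Gaa, had an unadjusted p under 0.05, against 2.93% of all genes. Ctss differed by -1.04 ± 0.39, Cd63 by -0.52 ± 0.47 and Ctsd by -0.37 ± 0.18, each with a limma adjusted p of 1. Leaving out wild-type high-cholesterol array 1 brought Cd63 to -0.08, leaving out array 2 of that group brought it to -0.80, and it was -1.50 and -0.03 within the array sets; the Ctsd value was -0.24 without Lats2-CKO high-cholesterol array 1. The Ctss groups overlapped, with wild-type array 3 at 8.30 below the Lats2-CKO array at 8.43. Within the array sets the Ctss value was -2.22 and -0.45, and the median of all members -0.36 and -0.05.

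**Figure D4:**
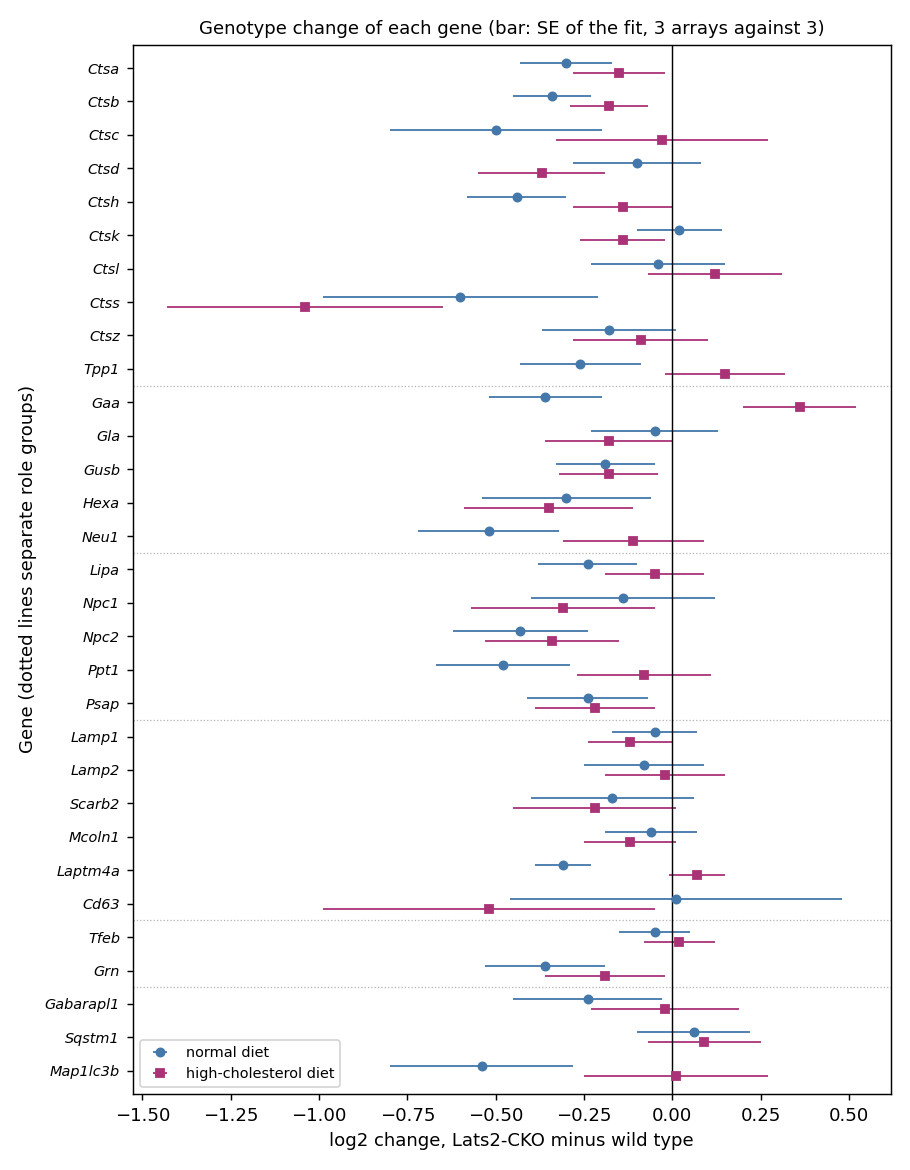
Genotype change of each of the 31 genes as log2 of Lats2-CKO minus wild type on the normal diet (circles) and the high-cholesterol diet (squares); bars are the SE of the fit with 3 arrays against 3. Most points lie left of 0, Ctss lowest at -0.60 and -1.04, and Gaa lies at -0.36 for the normal diet but at 0.36 for the high-cholesterol diet.

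Averaged over both diets, 29 of 31 members had a genotype change below 0 (49.3% of all genes did), with a median of -0.19, and no member passed the test (0.00451% of all genes; 7 members at an unadjusted p under 0.05, against 5.97% of all genes). Ctss stood at -0.82 ± 0.28 (limma adjusted p = 0.759), Npc2 at -0.38 ± 0.14 (limma adjusted p = 0.771) and Ctsb at -0.26 ± 0.08 (limma adjusted p = 0.714).

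Markers of macrophages and of other cell types were read on the same arrays. The mean of 13 Kupffer cell markers, none of them dim, ran from 6.81 to 7.21 in wild type and 6.27 to 6.54 in Lats2-CKO on the normal diet, and from 7.14 to 8.76 and 6.84 to 7.40 on the high-cholesterol diet. Over both genotypes 12 of the 13 had a diet change above 0, against 44.7% of all genes, with a median of 0.89. Clec4f, Cd5l and C1qb passed the test, all upward, against 0.365% of all genes. Each of them passed in 2 or 3 of the 12 fits leaving out an array. All 13 had a fitted genotype change below 0 over both diets, against 49.3% of all genes. The median was -0.71 and none was called (smallest limma adjusted p = 0.57). Without wild-type normal-diet array 3, 5 of the 13 passed for diet over both genotypes, all upward, against 3.14% of all genes. The 7 measured markers of lipid-associated macrophages had a mean of 4.34 to 5.66 and 4.22 to 4.48 on the normal diet and 4.70 to 7.03 and 4.77 to 5.33 on the high-cholesterol diet, wild type first, with 6 of 7 above 0 for diet over both genotypes and none called. Without wild-type normal-diet array 3, Lpl (lipoprotein lipase) and the tetraspanin Cd9 passed over both genotypes, at 2.49 and 0.46 (limma adjusted p = 0.00304 and 0.0224), and in Lats2-CKO, and Lpl passed in wild type. Of all genes, 7.24% then passed over both genotypes (3.14% upward), 2.11% in Lats2-CKO and 2.33% in wild type. Wild-type high-cholesterol array 1, at 7.03, and wild-type normal-diet array 3, at 5.66, had the highest means, and the same arrays had the highest Cd63, at 8.17 and 7.46. For genotype over both diets, all 4 endothelial markers (median -0.37) and all 6 markers of monocytes and neutrophils (-0.22) had a fitted change below 0. So did all 3 measured B cell markers (-0.33) and 4 of 6 stellate cell markers (-0.14), against 49.3% of all genes, and none was called. The B cell list mean was 5.15 on wild-type high-cholesterol array 2 and 3.02 to 3.53 on all other arrays. That array also had the highest Kupffer cell mean, 8.76. The 4 cholangiocyte markers, 1 of them dim, had a list mean of 3.89 in wild type and 3.83 in Lats2-CKO on the normal diet. On the high-cholesterol diet it was 4.0 and 4.15. The endothelial list mean was 7.87 to 8.09 on the 6 wild-type arrays and 7.32 to 7.76 on the 6 Lats2-CKO arrays, without overlap. Taken singly, each of the 4 markers overlapped between the genotypes. Stab2, for example, read 7.75 on Lats2-CKO high-cholesterol array 1 and 7.49 on wild-type normal-diet array 2. Among single genes, 0.126% had every Lats2-CKO array below every wild-type array. For diet over both genotypes, 1 endothelial, 5 monocyte and neutrophil, 3 B cell and 3 stellate cell markers had a change above 0. Of all genes 44.7% did, and none of these markers was called. Without wild-type normal-diet array 3, Lyz2 passed upward (1.17, limma adjusted p = 0.0281), where 3.14% of all genes did. The stellate cell gene Lrat passed downward (-0.97, limma adjusted p = 0.0433), where 4.1% of all genes did. The part of these cells in the lysosomal changes was not tested.

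**Figure D5:**
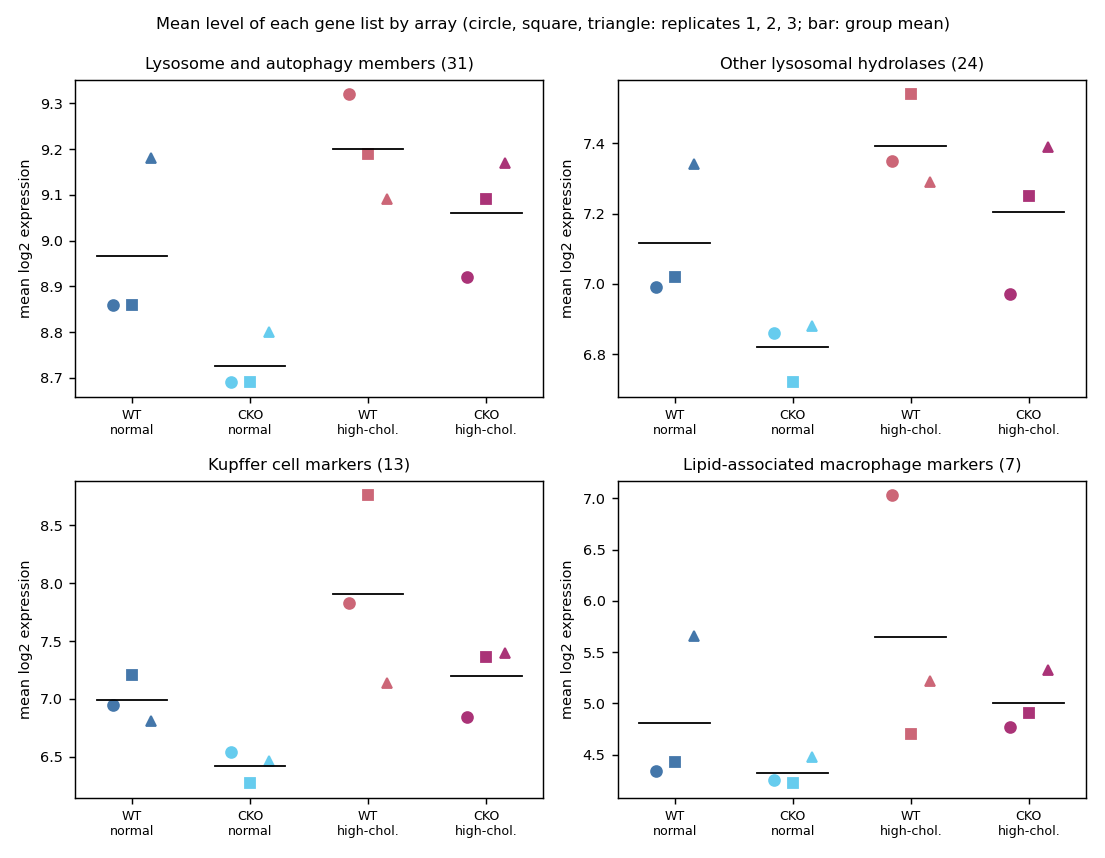
Mean log2 expression on each array of the 31 lysosome and autophagy genes, 24 other lysosomal hydrolases, 13 Kupffer cell markers and 7 lipid-associated macrophage markers; circles, squares and triangles are replicates 1, 2 and 3 and the bar is the group mean. The Lats2-CKO normal-diet arrays are the lowest for the 31 genes, at 8.69 to 8.80, and wild-type normal-diet array 3, at 9.18, sits among the high-cholesterol arrays, at 8.92 to 9.32.

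The rest of the lysosomal pathway was counted in the same fit. Of 24 other measured hydrolases and activators, 22 had a diet change above 0 over both genotypes, against 44.7% of all genes, with a median of 0.37, and 3 passed, all upward, against 0.365% of all genes: Gm2a, the activator of ganglioside breakdown, at 0.55 ± 0.10 (limma adjusted p = 0.038), Galc, which splits galactosylceramide, at 0.51 ± 0.10 (limma adjusted p = 0.0407), and Asah1, acid ceramidase, at 0.65 ± 0.14 (limma adjusted p = 0.0484). Without wild-type normal-diet array 3, 9 of the 24 passed, all upward, against 3.14% of all genes. Over the 12 fits that left out 1 array each, Gm2a and Galc passed in 2 and Asah1 in 3, with limma adjusted p up to 0.107, 0.11 and 0.141 over all alternatives, while their fitted changes stayed between 0.45 and 0.74. Gm2a also rose within Lats2-CKO, by 0.86 ± 0.14 (limma adjusted p = 0.035), a call kept in 5 of the 12 fits leaving out an array (limma adjusted p up to 0.126 over all alternatives). The largest changes between 2 groups in this list were those of Ids (0.90) and Galns (0.88), enzymes of glycosaminoglycan breakdown, in Lats2-CKO. Neither passed the test, and without wild-type normal-diet array 3 Ids did, at the same 0.90 (limma adjusted p = 0.0295).

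The acidification, sorting and autophagy lists held few calls. None of 15 V-ATPase subunits, which make up the proton pump, passed in any comparison, and their median diet change over both genotypes was 0.06; the largest changes were those of Atp6v0d2 (0.85 in wild type) and Atp6v1b2 (0.56 in Lats2-CKO). The Atp6v0d2 value rested on wild-type high-cholesterol array 1, which read 6.49 against 2.92 and 3.55 on the other arrays of its group, and was -0.24 without it; that of Atp6v1b2 was 0.26 without Lats2-CKO normal-diet array 2. None of 14 genes of lysosomal sorting and transport passed, with a median of 0.13 and the largest values for Slc17a5, the sialic acid exporter (0.88), and Sort1, sortilin (0.78, or 0.38 without Lats2-CKO normal-diet array 2), in Lats2-CKO. Without wild-type normal-diet array 3, Slc17a5 passed in Lats2-CKO (0.88, limma adjusted p = 0.04), where 2.11% of all genes passed. Over both genotypes 2 of the 14 then passed, against 7.24% of all genes (3.14% upward). These were Slc17a5 at 0.71 and the cystine exporter Ctns at 0.45 (limma adjusted p = 0.0126 and 0.0392). Of 33 genes of the core autophagy machinery, with a median of -0.02, Pik3c3, the lipid kinase Vps34, passed. It stood at 0.36 ± 0.07 over both genotypes (limma adjusted p = 0.0407), where 1.24% of all genes passed. In Lats2-CKO it stood at 0.61 ± 0.10 (limma adjusted p = 0.0332), where 0.271% of all genes passed. These calls were kept in 1 and 4 of the 12 fits leaving out an array. The largest values in that list, for Calcoco1 (1.36 in Lats2-CKO) and Vmp1 (0.94 in wild type), did not pass. Vmp1 read 7.10 on wild-type high-cholesterol array 2 and 4.72 and 5.10 on the others of its group, and its change was 0.21 without that array. Without wild-type normal-diet array 3, Calcoco1 passed in Lats2-CKO (1.36, limma adjusted p = 0.0366), where 2.11% of all genes passed. Rb1cc1 then passed in wild type (0.87, limma adjusted p = 0.0477), where 2.33% of all genes passed. Over both genotypes 3 of the 33 passed, all upward, against 7.24% of all genes (3.14% upward). These were Pik3c3, Calcoco1 and Rb1cc1, a subunit of the Ulk1 kinase complex.

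Of 19 genes of nutrient sensing at the lysosome and relatives of Tfeb, 1 passed, against 0.87% of all genes downward. Rptor, the Raptor subunit of the mTORC1 kinase complex, fell by 0.50 over both genotypes (SE 0.09, limma adjusted p = 0.0403). That call was kept in 2 of the 12 fits leaving out an array, with values from -0.58 to -0.45 over all alternatives. Fnip1 and Fnip2, the folliculin partners, had the largest changes between 2 groups, 0.74 in wild type (0.37 without normal-diet array 1 of that genotype) and 0.77 in Lats2-CKO, without passing. With wild-type normal-diet array 3 left out, 4 of the 19 passed upward over both genotypes, against 3.14% of all genes. These were Fnip1 at 0.93, Fnip2 at 0.98, Rragc at 0.71 and Tsc1 at 0.61. Downward 3 passed, against 4.1% of all genes: Rptor at -0.58, Tfe3 at -0.52 and Lamtor1 at -0.35. In wild type Fnip1, Fnip2 and Rptor then passed (1.20, 1.19 and -0.75), against 2.33% of all genes. None of the genes in these 5 lists passed in a genotype comparison or in the difference between genotypes, with or without that array.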

How the data were processed

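The values were the authors' deposited log2 expression per probe set, made from Affymetrix arrays by RMA in Partek 6.6 per the submitters' processing notes (250 ng of RNA per array, per the labels' protocols); the log2 scale was taken from the range of 1.94 to 14.16. Of 41345 probe sets, 23521 carried 1 gene symbol, 1814 several and 16010 none; 23328 symbols were updated through gene identifiers and 193 kept, and the brightest probe set stood for a gene, which left 22180 genes. Levels were compared in limma 3.58.1 (R 4.3.3; lmFit and eBayes, 12 arrays, 4 group means, 7 contrasts), with Benjamini-Hochberg adjustment over all genes and a threshold of 0.05. The scripts were tested on simulated data.

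The members and gene lists were chosen with earlier results of these data known. Array values are given for members past the threshold, the 3 with the largest change in each comparison of 2 groups, and Lipa, Npc1, Npc2, Tfeb, Ctsd, Lamp1, Sqstm1 and Map1lc3b; in the other lists the members called and the 2 largest changes are named. Laptm4a and Gaa, and the genes named without wild-type normal-diet array 3, were singled out after their values were seen. The number of arrays limits the precision. The labels do not say that replicate numbers pair the samples. Deviations from the group means correlated at 0.00237 to 0.176 between same-number arrays, with 7 of 18 pairs above 0.1. Every replicate 1 array lay in the set with higher medians and every replicate 3 array in the other. Whether replicate numbers mark a shared batch was not tested. Alternatives were array weights, other priors and normalizations, blocks for array set and replicate number, dim genes left out, other probe-set rules, and each array left out.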

Additional observations from a re-analysis of the deposited data

Results flagged for a closer look

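Gaa, the lysosomal enzyme of glycogen breakdown, had opposite genotype differences on the 2 diets. It read 8.57, 8.64 and 8.73 in wild type and 8.53, 8.02 and 8.29 in Lats2-CKO on the normal diet, where every Lats2-CKO array was lower. On the high-cholesterol diet it read 7.88, 8.37 and 8.39 in wild type and 8.47, 8.72 and 8.54 in Lats2-CKO, where every Lats2-CKO array was higher. The difference between the diet changes was 0.73 ± 0.23 (log2, limma adjusted p = 0.752), which did not pass the test over all genes, and 0.68 without wild-type normal-diet array 3.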

How the results depend on the processing

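The count of members past the threshold for diet over both genotypes, 1 as reported, was 0 when array set was a block, 2 with a trended and robust prior, 7 with array weights and 2 with dim genes left out, and ran from 0 to 7 as each array was left out (0 in 10 of 12 cases, 7 without wild-type normal-diet array 3, 2 without wild-type high-cholesterol array 3). With the replicate number as a block the count was 1. Ctsc passed (limma adjusted p = 0.0421) and Ctss did not (limma adjusted p = 0.0557). Ctss passed in 9 of 21 alternatives (limma adjusted p from 0.0123 to 0.124) and Gabarapl1 in 4 of 21 (from 0.00162 to 0.146). In wild type the count ran from 0 to 1 without single arrays (1 without wild-type normal-diet array 3 and 1, Ctss, without wild-type high-cholesterol array 3); in Lats2-CKO it was 1 with array weights and 0 to 2 without single arrays. Over all genes the count called for diet over both genotypes, 274, ran from 6 to 1605 as single arrays were left out. No genotype or interaction count left 0 under any alternative run.

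Without single arrays the median diet change ran from 0.11 to 0.28 in wild type, 0.25 to 0.34 in Lats2-CKO and 0.16 to 0.30 over both. The median genotype change ran from -0.31 to -0.17 on the normal diet, -0.19 to -0.08 on the other diet and -0.25 to -0.13 over both, and the interaction median from 0.05 to 0.19. Within array sets the medians that moved by more than the spread between arrays (0.111) were 0.39 and -0.03 for diet in wild type, -0.42 for genotype on the normal diet and -0.36 for genotype on the other diet. The cause was not tested. Tfeb, near background, limits what can be seen of that gene.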
